A study of Mus musculus with 4 samples.

Results

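The 42 genes described here encode subunits of the mouse proteasome, its immunoproteasome variant, its activators and some of its assembly chaperones. They were taken from the 55401 rows of a gene count table by symbol: Psma, Psmb, Psmc, Psmd or Psme followed by digits alone, with at least 20 counts summed over 4 libraries. The least counted gene inside that limit was Psma8 with 22 counts and the gene just outside was Psmb11, the thymus-restricted catalytic subunit, with 6. Of the 42, 41 passed the filter on low counts and were tested, and Psma8 did not. The members were compared as 5 inducible subunits (Psmb8, Psmb9, Psmb10, Psme1, Psme2) and 37 constitutive ones.

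The proteasome is a barrel-shaped protease, the 20S core, made of alpha rings that gate entry and beta rings that hold the catalytic sites. A 19S cap binds ubiquitin-tagged proteins, unfolds them with a ring of ATPases and feeds them into the core. Interferons induce 3 replacement catalytic subunits, beta 1i (Psmb9), beta 2i (Psmb10) and beta 5i (Psmb8), which are built into new cores in place of beta 1 (Psmb6), beta 2 (Psmb7) and beta 5 (Psmb5). They also induce PA28 alpha and beta (Psme1 and Psme2), an alternative cap. Lymphocytes carry much of this immunoproteasome already at rest, and its products are a main source of peptides for MHC class I.

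All 4 libraries were poly(A) RNA of splenic B cells from C57BL/6 mice, purified with beads against CD43. The cells were kept for 36 h with anti-CD40 (1 µg/ml), a stand-in for help from T cells, and anti-IgM (10 µg/ml), a stand-in for antigen. In the labels, 2 libraries are wild type and 2 are Adar1 cKO, a deletion of the RNA-editing enzyme ADAR1 in B cells. The sources used here give neither the Cre driver, the deleted part of the gene, nor the age and sex of the mice. Nor do they say whether libraries came from separate mice, so that p-values cover only the spread between these libraries, some of which may be technical. Counts per library lay between 17327480 and 19669651.

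The targeted gene, Adar, stood at 137 and 149.97 CPM (counts scaled to a common total) in wild type and at 218 and 233 CPM in the libraries with the cKO label, a log2 change of 0.65 ± 0.063 (SE, n = 2 per genotype). At the level of the whole gene this runs against the label, although the deleted part was not measured. The term cKO-labelled is used for that reason, and each direction rests on the label. B-cell markers were abundant in all libraries. Cd22, Cd79a, Cd79b and Pax5 were called lower in the cKO-labelled libraries, with log2 changes of -0.36, -0.34, -0.33 and -0.23, and Ms4a1 (0.11) was not called. Ribosomal RNA rows took 0.525% of the counts in wild-type library 2, against 0.0947 to 0.125% in the other libraries.

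The promoters of the inducible subunits are shown first, because interferon-regulated factors bind short motifs there. RefSeq windows from 250 bases before to 50 bases after the start site (GRCm38.p6) were found for 35 members, the 5 inducible ones among them. The interferon-stimulated response element (ISRE), which interferon regulatory factors bind, was searched as GAAA, 2 bases of any kind and GAAA, and the gamma-activated site, through which interferon gamma acts, as TTCNNNGAA. Both were searched on both strands. The stretches that hold a match are printed 5′ to 3′ on the strand of the gene, with the match in capitals (an ISRE on the opposite strand reads TTTC, 2 bases and TTTC).
Psme1: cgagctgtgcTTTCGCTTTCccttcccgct
Psmb8: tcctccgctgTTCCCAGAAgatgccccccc
Psmb3: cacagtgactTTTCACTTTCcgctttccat
Psmd4: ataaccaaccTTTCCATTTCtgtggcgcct
Psmd9: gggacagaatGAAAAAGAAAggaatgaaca
Psmd2: gcgcgtggccTTCTGGGAAaaggggcggtg

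The Psme1 stretch lies at chr14:55578493-55578522 and its match begins at base 10 of the transcript. The Psmb8 stretch lies at chr17:34198088-34198117, with the TTCNNNGAA match beginning 97 bases before the start. The other stretches belong to constitutive subunits, at chr11:97703261-97703290 for Psmb3, chr3:95042675-95042704 for Psmd4, chr5:123228021-123228050 for Psmd9 and chr16:20651646-20651675 for Psmd2. The ISRE was thus found in 1 of 5 inducible and in 3 of 30 constitutive genes with a window, and in 3.99% of all 27025 genes with a window. TTCNNNGAA was found in 1 of 5 inducible genes, in 1 of 30 constitutive genes (Psmd2) and in 9.55% of all genes. The NF-kB motif, searched as GGGA, any base and TTTCC and present in 0.466% of all genes, was found in 0 of 5 and 0 of 30. Each of these strings, for motifs read by interferon or NF-kB signalling, was thus found in at most 1 inducible gene. Sites that depart from the string or lie outside the window would be missed. TGANNNNGC, the antioxidant response element read by NRF1 and NRF2, was found in 3 of 5 inducible genes, in 17 of 30 constitutive genes and in 45% of all genes. CCAAT, the box bound by NF-Y, was found in 1 of 5, in 12 of 30 and in 41.1% of all genes. These matches describe letters in the window and not binding.

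The genotypes were compared for differences in transcript level after activation. The 3 immunoproteasome catalytic subunits rose in the cKO-labelled libraries, Psmb9 most, followed by Psmb10 and Psmb8. Psme1 and Psme2 rose by less. Their constitutive counterparts Psmb5, Psmb6 and Psmb7 were not called. All 5 inducible members were called higher by edgeR (quasi-likelihood test, Benjamini-Hochberg adjusted over 14180 genes, threshold 0.05). In that test 12.2% of all genes were called higher and 9.54% lower. Of the 36 constitutive members tested, 3 were called higher, which is 8.33%, beside 12.2% of all genes. Changes were positive for 28 of these 36 and for 6924 of all 14180 genes. Both cKO-labelled libraries lay above both wild-type ones for 15 of the 36 and below for 5. That was so for 29.2% and 28.7% of all genes. The median log2 change was 0.33 over the inducible members, 0.05 over the constitutive ones and -0.01 over all genes tested. DESeq2 called 3 inducible and 1 constitutive member higher and 0 lower, beside 8.71% of all genes higher and 5.61% lower. At an unadjusted p under 0.05 edgeR gave 17.1% of all genes higher and 15.2% lower, and of the constitutive members 5 higher and 1 lower. Inducible calls numbered 4 without wild-type library 1, 3 without wild-type library 2, 4 without cKO-labelled library 1 and 3 without cKO-labelled library 2, and constitutive calls 1, 0, 1 and 2 in that order.

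Psmb9 encodes beta 1i, which replaces the caspase-like site of the core. It stood at 211 and 194 CPM in wild type and at 332 and 332 CPM in the cKO-labelled pair, so that the genotypes did not overlap. Its log2 change was 0.71 ± 0.060 (SE, n = 2 per genotype), a 1.64-fold rise, at an edgeR adjusted p of 2.86e-09. On the opposite strand Tap1 covers 212 exonic bases of Psmb9, and the library kit does not mark strand, so that reads there cannot be told apart.

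Psmb10 encodes beta 2i, which replaces the trypsin-like site. Its values were 95.6 and 94.2 CPM in wild type and 133 and 135 CPM in the cKO-labelled pair. The libraries of a genotype lay close together and the genotypes did not overlap. The log2 change was 0.50 ± 0.060 (SE, n = 2 per genotype), at an edgeR adjusted p of 1.15e-06.

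Psmb8 encodes beta 5i, which replaces the chymotrypsin-like site and was the most counted inducible gene. It stood at 350 and 311 CPM in wild type and at 427 and 404 CPM in the cKO-labelled pair. The wild-type libraries were farther apart than those of Psmb9 and Psmb10, but both lay below both cKO-labelled ones. The log2 change was 0.33 ± 0.063 (SE, n = 2 per genotype), at an edgeR adjusted p of 0.000382.

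Psme1, for PA28 alpha, stood at 281 and 265 CPM in wild type and at 304 and 307 CPM in the cKO-labelled pair. Psme2, for PA28 beta, stood at 186 and 170 CPM in wild type and at 195 and 214 CPM in the cKO-labelled pair. Neither gene overlapped between genotypes, but the gap between the nearest libraries was small for Psme2. By edgeR the log2 change was 0.17 ± 0.058 for Psme1 (adjusted p 0.0431) and 0.20 ± 0.064 for Psme2 (adjusted p 0.0264). Both calls were lost with DESeq2. The Psme1 call was also lost with no filter on low counts and with the removal of any 1 of the 4 libraries, with changes from 0.12 to 0.20, and was kept at 0.27 after removal of each library's GC trend. The Psme2 call was lost without wild-type library 2 (0.13) or without cKO-labelled library 2 (0.13).

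The count of Psme2 is uncertain because of a retrogene, Psme2b, a copy on chromosome 11 (48945354 to 48946190) whose symbol keeps it out of the members. Of the 50-base stretches of the principal Psme2 transcript, 59.3% occur in Psme2b too. The counts of Psme2b were 5082 and 5370 in wild type against 6465 and 6657 in the cKO-labelled libraries, more in every library than Psme2 with 3198 and 3350 against 3506 and 3741. Psme2b changed by 0.38 ± 0.060, at an edgeR adjusted p of 4.46e-05. With the counts of both genes summed, the log2 change was 0.32, above that of Psme2 alone. No source used here says how the authors assigned reads that match both, so the rise cannot be placed on either gene alone.

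**Figure D1:**
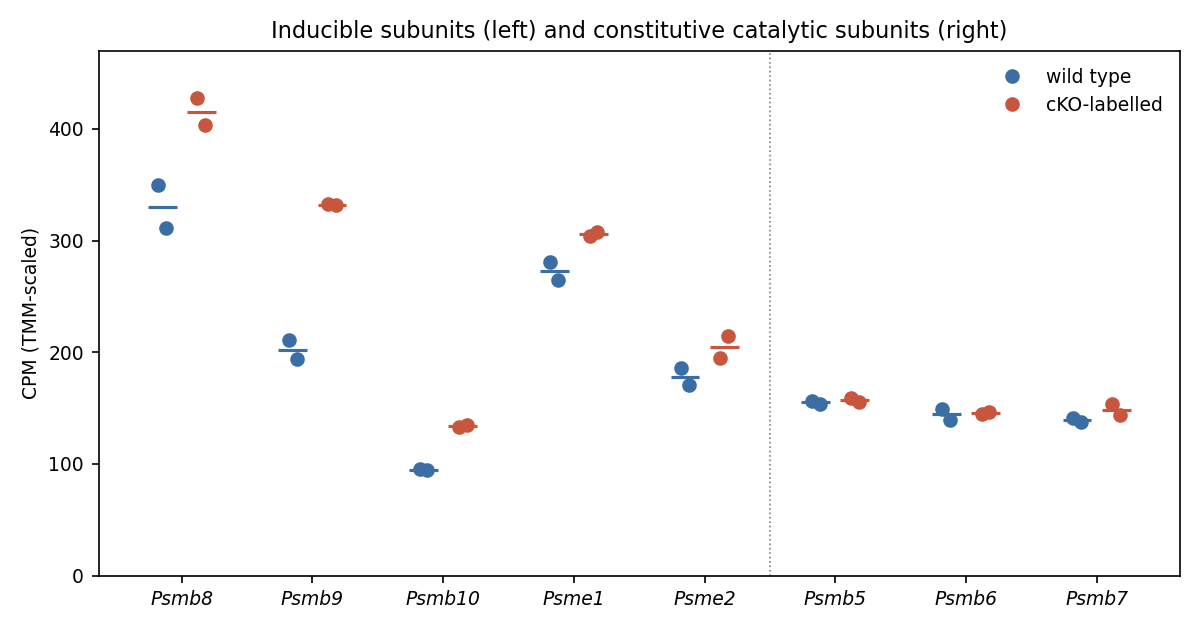
CPM scaled by TMM (vertical axis) of the 5 inducible subunits and the 3 constitutive catalytic subunits in each library; points are libraries and bars are means of 2. For Psmb8, Psmb9, Psmb10, Psme1 and Psme2 both cKO-labelled libraries lie above both wild-type ones, while Psmb5 and Psmb6 overlap between genotypes.

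Other cells could also carry the inducible subunits. Of all genes tested, 12.2% were called higher and 9.54% lower. Of 8 dendritic cell markers, 4 were tested and 3 of them (Flt3, Itgax and Zbtb46) were called higher. The summed level of all 8 was 58.1 and 57.0 CPM in wild type and 108 and 113 CPM in the cKO-labelled pair, where Clec9a had 2 and 2 counts. Cd209a and Clec10a had 0 counts in every library. The 7 macrophage and monocyte markers summed to 128 and 123 CPM against 46.4 and 55.9 CPM. Adgre1, at 111 and 108 CPM against 30.3 and 40.3 CPM, was the 1 gene called of 5 tested, and the other 6 summed to 18.1 and 15.7 CPM against 16.1 and 15.5 CPM. Both cKO-labelled libraries lay above both wild-type ones for Cd14 (1.33) and Lyz2 (0.30), neither of them called. T-cell markers summed to 3.97 to 7.05 CPM and NK-cell markers to 0.254 to 3.90 CPM over the 4 libraries, with Nkg7 the 1 NK gene tested and called higher. Neutrophil markers summed to 0.661 and 1.10 CPM in wild type against 2.11 and 3.21 CPM, and erythroid markers to 1.22 and 1.39 CPM against 3.72 and 3.78 CPM. The part of these cells in the rise of the inducible subunits was not tested. In bulk RNA, more cells of a type and more RNA per cell cannot be told apart.

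The catalytic subunits that immunoproteasome assembly displaces showed small differences. Psmb5 (beta 5) stood at 157 and 154 CPM in wild type and at 159 and 156 CPM in the cKO-labelled pair, with a log2 change of 0.02 ± 0.058 (SE, n = 2 per genotype). Psmb6 (beta 1) stood at 149 and 139.5 CPM against 145 and 147 CPM, a change of 0.02 ± 0.060. Psmb7 (beta 2) stood at 141 and 137 CPM against 154 and 143 CPM, a change of 0.09 ± 0.060. Libraries overlapped between genotypes for Psmb5 and Psmb6, and for Psmb7 both cKO-labelled libraries lay above. None of the 3 was called, and 0 of 3 had an unadjusted p under 0.05 by edgeR or a call by DESeq2. Of all genes, 17.1% were higher and 15.2% lower at that unadjusted p. Psmb7 shares 405 exonic bases with Nek6 on the opposite strand, and the counts of Nek6 were 391 and 399 in wild type against 707 and 706.

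Ratios of each induced subunit to the subunit it replaces were formed within each library from FPKM, the deposited level per kilobase of exonic length. The ratio of Psmb9 to Psmb6 was 0.722 and 0.711 in wild type and 1.17 and 1.15 in the cKO-labelled libraries. The ratio of Psmb10 to Psmb7 was 1.36 and 1.38 against 1.73 and 1.89. That of Psmb8 to Psmb5 was 0.593 and 0.536 against 0.713 and 0.688. No ratio overlapped between genotypes. The ratios rose 1.62-fold, 1.32-fold and 1.24-fold in that order, or by 0.70, 0.40 and 0.31 on the log2 scale, where the SD within a genotype was 0.0156 to 0.103 (n = 2). The exact two-sided permutation p was 0.333 for each of the 3 ratios and 0.333 after Benjamini-Hochberg adjustment, the smallest that 2 against 2 libraries can give.

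The direction of each ratio does not depend on gene length, but its level does. The exonic length in the deposited table merges all transcripts of a gene and is 3381 bases for Psmb8 and 899 for Psmb5. With the length of the principal coding transcript of GENCODE M21 instead (1628 and 899 bases), the ratio of Psmb8 to Psmb5 was 1.23 and 1.11 in wild type and 1.48 and 1.43 in the cKO-labelled libraries. On that scale the ratio of Psmb9 to Psmb6 was 0.833 and 0.821 against 1.35 and 1.33, and that of Psmb10 to Psmb7 was 0.598 and 0.607 against 0.765 and 0.831. In wild type the induced subunit was thus below its partner for Psmb8 and Psmb9 by FPKM, and for Psmb9 and Psmb10 per principal transcript. Other genes share 57.1% of the 50-base stretches of Psmb5. The processed pseudogene Gm3375 alone shares 49.4% and held 28 to 63 counts per library. No source used here says how such reads were counted, so the level of Psmb8 to Psmb5 is uncertain for that reason too. The share of beta 1i transcripts in the sum of beta 1 and beta 1i went from 41.9 and 41.6% to 54.0 and 53.6% by FPKM, and from 45.5 and 45.1% to 57.5 and 57.1% per principal transcript.

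**Figure D2:**
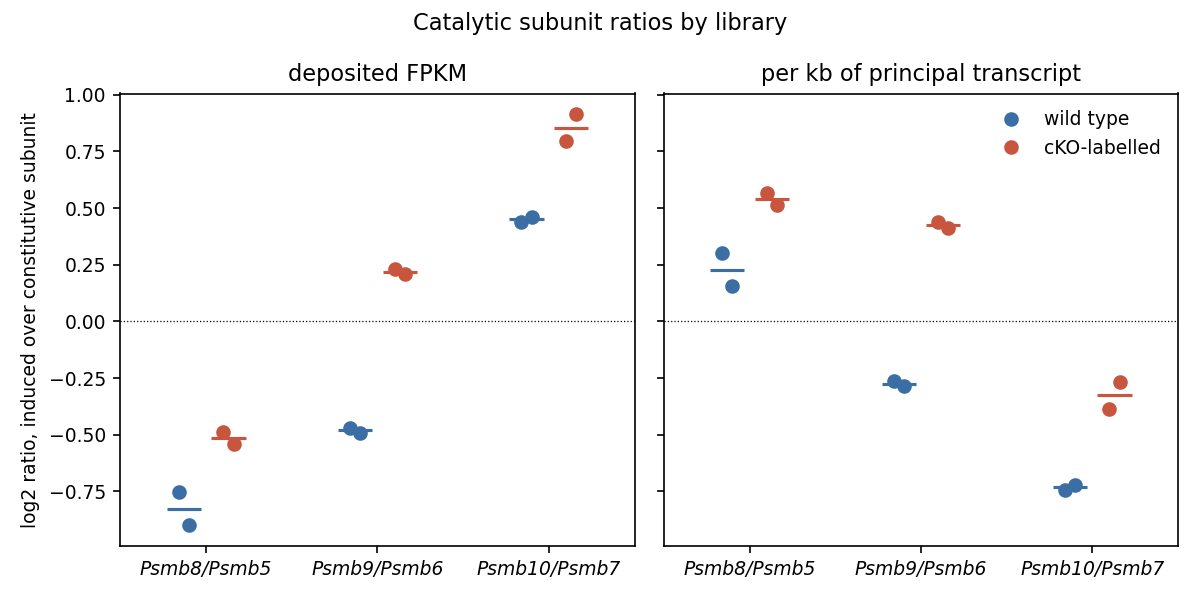
Log2 ratio of induced to constitutive catalytic subunit in each library (points; bars are means of 2), from deposited FPKM (left) and per kilobase of the principal transcript (right). In all 3 pairs both cKO-labelled libraries lie above both wild-type libraries on either scale, while the level relative to 0 differs between scales.

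The structural beta subunits, which shape the rings without cutting, were not called. The log2 differences of Psmb1, Psmb2 and Psmb4 were 0.005, 0.043 and 0.018. Psmb3 stood at 192 and 182 CPM in wild type and at 173 and 170 CPM in the cKO-labelled pair, without overlap. Its log2 change was -0.12 ± 0.059, with an unadjusted p of 0.0498 and an edgeR adjusted p of 0.154, and it was the 1 member of 41 on the lower side with an unadjusted p under 0.05, where all genes gave 15.2%. Copies of Psmb3 share 55.8% of its 50-base stretches. No member was called lower: 0 of 41 by edgeR and 0 of 41 by DESeq2, beside 9.54% and 5.61% of all genes.

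The alpha ring gates the core. Of its 7 subunits, 1 was called higher, and both cKO-labelled libraries lay above both wild-type ones for 5. For all genes tested that pattern was found in 29.2%, and both cKO-labelled libraries below in 28.7%. Of all genes, 12.2% were called higher and 9.54% lower. Psma4 stood at 171 and 163 CPM in wild type and at 195 and 191 CPM in the cKO-labelled pair. Its log2 change was 0.21 ± 0.059, at an edgeR adjusted p of 0.0127. The call was lost without wild-type library 2 (0.17), without cKO-labelled library 1 (0.19) and after removal of each library's GC trend (0.16). A processed pseudogene, Gm6542, shares 25.6% of its 50-base stretches. Psma6, the most abundant member by FPKM (266 on average), stood at 312 and 316 CPM against 355 and 333 CPM, a change of 0.13 ± 0.058 that was not called. Psma1, Psma2, Psma5 and Psma7 had differences of 0.08, -0.01, 0.09 and -0.02, and Psma3 of 0.12, none of them called. Psma8, the testis-specific alpha subunit, was listed with 4 and 8 counts for wild type against 10 and 0 for the cKO-labelled libraries.

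The ATPases of the 19S base, Psmc1 to Psmc6, had log2 differences of 0.01 to 0.15. None of the 6 was called by edgeR or DESeq2, and 1 (Psmc2) had an unadjusted p under 0.05 by edgeR, on the higher side. Of all genes, 17.1% were higher and 15.2% lower at that unadjusted p. Psmc2 stood at 145 and 139 CPM in wild type and at 162 and 154 CPM in the cKO-labelled pair, at an edgeR adjusted p of 0.0779. Psmc3 stood at 219 and 220.2 CPM against 231 and 235 CPM. Its difference of 0.09 was not called, but after removal of each library's GC trend it was 0.17 and called, at an edgeR adjusted p of 0.0342.

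Among 11 non-ATPase subunits of the 19S particle, which receive and deubiquitinate substrates, 1 was called higher. That is 9.09%, where 12.2% of all genes were called higher and 9.54% lower. Psmd12, a lid scaffold subunit, stood at 93.4 and 92.9 CPM in wild type and at 110 and 102 CPM in the cKO-labelled pair. Its log2 change was 0.19 ± 0.063, at an edgeR adjusted p of 0.0328. The call was lost with DESeq2 and without wild-type library 1 (0.19), wild-type library 2 (0.18) or cKO-labelled library 1 (0.13). The other 10 had differences from -0.11 (Psmd4, a ubiquitin receptor) to 0.10 (Psmd14, the lid deubiquitinase). Psmd2, a scaffold of the base and the most counted of them, stood at 381 and 388 CPM against 373 and 402 CPM. The assembly chaperones Psmd5, Psmd9 and Psmd10 had differences of 0.09, 0.03 and 0.16 and were not called.

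Of the 2 other activators, 1 was called higher, where 12.2% of all genes were called higher and 9.54% lower. Psme4 encodes PA200, a nuclear cap that works without ubiquitin. It stood at 96.2 and 99.7 CPM in wild type and at 108 and 113 CPM in the cKO-labelled pair, a log2 change of 0.17 ± 0.061 at an edgeR adjusted p of 0.0444. This call was lost with DESeq2, without the filter on low counts, after removal of the GC trend (0.11) and without any 1 of 3 libraries (0.14 to 0.20); it was kept without cKO-labelled library 1. Psme3, for the nuclear PA28 gamma that interferon does not induce, stood at 364 and 372 CPM against 356 and 359 CPM and was not called.

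**Figure D3:**
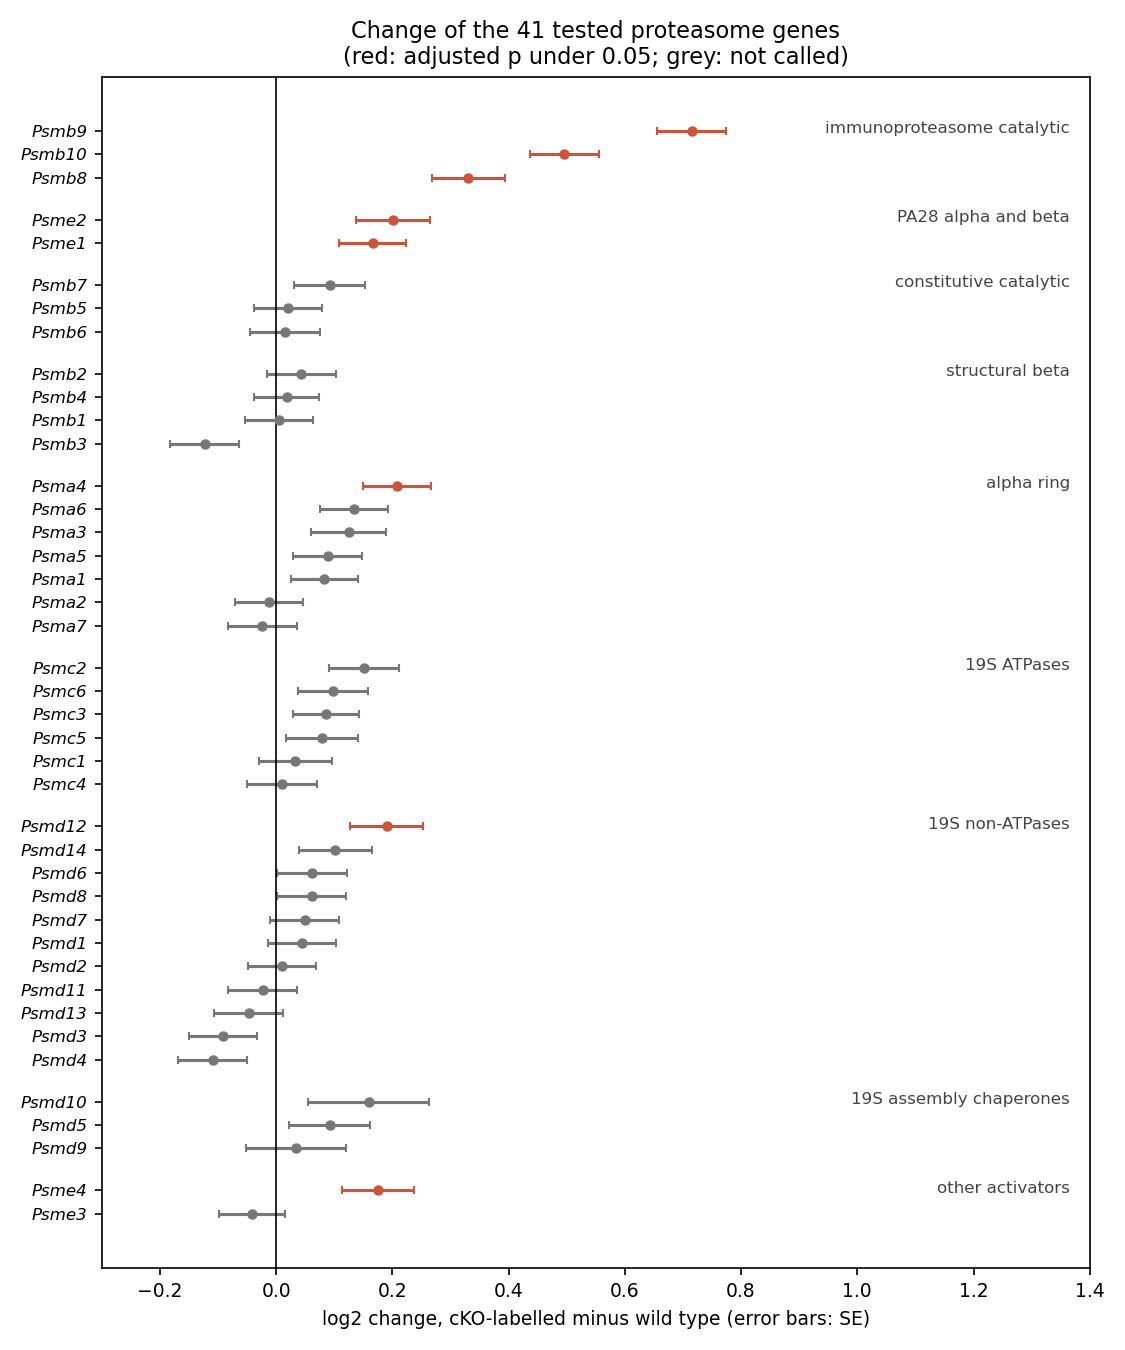
Log2 change (cKO-labelled minus wild type, horizontal axis) with its SE for the 41 tested members, grouped by role; red marks an adjusted p under 0.05. The 5 inducible genes are drawn at the top because of their role, with changes of 0.17 to 0.71. The 36 constitutive genes lie between -0.12 and 0.21, a range that also holds Psme1 (0.17) and Psme2 (0.20).

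Summed over the members of each kind, the 5 inducible genes held 1122 and 1034 CPM in wild type and 1392 and 1392 CPM in the cKO-labelled pair. The 36 constitutive genes tested held 6331 and 6189 CPM against 6472 and 6381 CPM. Summed FPKM of the immunoproteasome catalytic subunits was 216 and 200.2 in wild type and 295 and 289 in the cKO-labelled pair, and that of Psmb5, Psmb6 and Psmb7 was 294 and 286 against 299.98 and 294. By FPKM the members of the 20S core were not equal in transcript level. Alpha and structural beta subunits are needed in equal numbers in the particle. Psmb5, Psmb6 and Psmb7 share their places with the induced subunits. The 14 constitutive core members, these included, ran from 21.1 (Psma3) to 266 (Psma6). Their median was 77.8 and their coefficient of variation 64.4%. Per principal transcript the coefficient of variation was 46.1%. The 17 ATPase and non-ATPase subunits of the 19S particle ran from 22.2 (Psmd11) to 126 (Psmc5) by FPKM, with a coefficient of variation of 48.2%, or 31.9% per principal transcript. Psma3 was lowest on either scale, and Gm13835, a processed pseudogene with 22.0% of its 50-base stretches, held 1109 to 1308 counts per library. The inducible genes lay within the same range, from a mean of 67.0 for Psmb10 to 131 for Psme1 by FPKM.

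**Figure D4:**
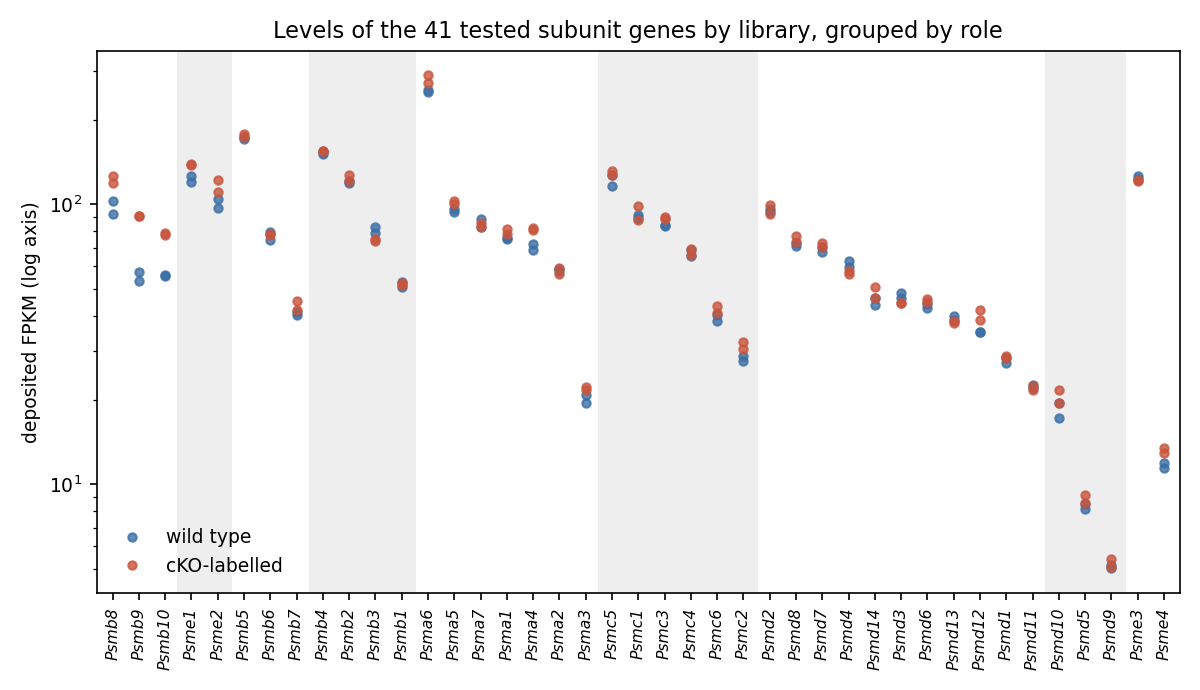
Deposited FPKM (log axis) of the 41 tested subunit genes in each library (points), grouped by role with alternate shading and ordered by mean level. Libraries of both genotypes nearly coincide for most constitutive genes, and separate for Psmb8, Psmb9 and Psmb10.

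Some inducible members lie beside other genes that were called higher. Psmb9 and Psmb8 lie on chromosome 17 (34181987 to 34187764 and 34197721 to 34201454) with Tap1 between them. The RefSeq start sites of Psmb9 and Tap1 point away from each other and are 226 bases apart. Within 25000 bases of either gene, Tap1, Tap2 and H2-DMb1 were called higher, by 0.58 ± 0.058, 0.41 ± 0.058 and 0.36 ± 0.078, and the predicted gene Gm15821 was not called. Psme1 and Psme2 lie 5911 bases apart on chromosome 14. Of their tested neighbours, Irf9 was called higher at 0.60 ± 0.060, while Rnf31 (0.00), Dcaf11 (-0.12), Emc9 (-0.41) and Gm15932 (0.14) were not called. Psmb10 on chromosome 8 (105935735 to 105938444) had 4 tested neighbours in that span, Pskh1, Ctrl, Lcat and Slc12a4, and none was called.

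Most of the genes that supply and load peptides onto MHC class I also rose. Of 9 such genes, 7 were called higher and 0 lower by edgeR, with a median log2 change of 0.33. The same counts were found at an unadjusted p under 0.05 and by DESeq2. All genes gave 12.2% higher and 9.54% lower by edgeR. They gave 17.1% and 15.2% at an unadjusted p under 0.05, and 8.71% and 5.61% by DESeq2. Tap1, a chain of the peptide transporter, rose from 391 ± 16.5 to 584 ± 12.8 CPM (SD, n = 2). Tapbpl, a peptide editor, rose by 0.50 ± 0.060 and Tap2 by 0.41 ± 0.058. Calr, a chaperone and the most abundant of the list by FPKM, had a difference of 0.01 and was not called. The class I genes H2-K1, H2-D1 and B2m and their regulator Nlrc5 were all called higher, by 0.49, 0.40, 0.50 and 0.62.

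Among transcription factors that respond to interferon, Stat2 rose by 1.18 ± 0.061 and Irf1 by 0.75 ± 0.062, and Irf8 by 0.18 ± 0.055, all called by edgeR. The value of Stat2 lies above the highest of any member, 0.71 for Psmb9, but the difference was not tested.

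Factors that build or serve the constitutive proteasome were compared in the same test. Of 17 assembly and associated factors, 2 were higher and 0 lower by edgeR (5 and 0 at an unadjusted p under 0.05, 1 and 0 by DESeq2). The 2 are 11.8% of the list, near the 12.2% of all genes called higher, where 9.54% were called lower. All genes gave 17.1% higher and 15.2% lower at an unadjusted p under 0.05, and 8.71% and 5.61% by DESeq2. The 2 called factors were Uchl5, a deubiquitinase of the 19S cap, at 0.34 ± 0.074, and Ubr4 at 0.21 ± 0.070. Ubqln4, which carries ubiquitin-tagged proteins to the proteasome, was called lower by edgeR at -0.19 ± 0.063 but not by DESeq2. Of 6 regulators of constitutive proteasome genes, 0 were called in either direction by edgeR or DESeq2, and 1, Nfe2l1 for the transcription factor NRF1, had an unadjusted p under 0.05 with a difference of -0.14 ± 0.057 (named after its values were seen). Of 6 cytosolic peptidases, Thop1, which destroys peptides after the proteasome, was called lower at -0.29 ± 0.064, and 0 were higher (1 higher and 1 lower at an unadjusted p under 0.05, 0 and 1 by DESeq2).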

How the data were processed

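Read counts per gene were deposited by the authors as whole numbers for 4 libraries, with FPKM values beside them. Per the submitters' processing notes, the tools were HTSeq 0.6.1, HISAT2 2.0.1, cutadapt 1.9.1 and bcl2fastq 2.17.1.14, with build GRCm38. No source used here gives their settings. The deposited FPKM values were within 0.005 of values recomputed from counts, exonic lengths and library totals. Counts were tested with edgeR 4.0.16 (R 4.3.3). Low genes were dropped by filterByExpr with a minimum count of 10 and a minimum total of 15, which left 14180 genes, and TMM, glmQLFit and glmQLFTest followed, with Benjamini-Hochberg adjustment over all genes, called under 0.05. CPM values are TMM-scaled; those of marker sums use raw totals. SEs were derived from the size of the change and the root of the F statistic. A count of 1 was worth 0.0508 to 0.0577 CPM, which covers counting error only. Shared 50-base stretches and exon overlaps came from GENCODE M21 (99.53% of rows matched). Alternatives were DESeq2 1.42.0, its size factors in edgeR, no filter, a replicate block, removal of a GC trend per library, no ribosomal RNA rows, and each library left out. The summed Psme2 and Psme2b counts and the principal transcript lengths were added after seeing the data. Members and lists were chosen with earlier results of these data known. All members could be named; of each related list, all called genes up to 4, otherwise the 3 of smallest adjusted p and the most abundant, with Tap1 always. Planned protein alignments were not run, and some marker and pathway results are not reported here.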

Additional observations from a re-analysis of the deposited data

How the results depend on the processing

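Psmb8, Psmb9 and Psmb10 kept their direction and call in all 10 alternatives, with log2 changes of 0.24 to 0.41, 0.65 to 0.79 and 0.48 to 0.60. The other 5 called members did not. Members called higher numbered 8, and 4 with DESeq2 (3 inducible and 1 constitutive), which called 1235 of all genes higher against 1727 and 795 lower against 1353; the cause was not tested. With 1 library left out, 3 to 5 members were called higher, of which 3 to 4 were inducible and 0 to 2 constitutive; fewer libraries then enter and the lone one is assumed to vary like the others. Direction turned for 9 of 42 genes compared (41 members and Psme2b), whose change was at most 0.047 in size. After removal of the GC trend Psma7 stood at 0.089 and Psmd13 at 0.015, and without the filter Psmb1 at -0.002. With a library left out, Psma2 ran from -0.046 to 0.018, Psma7 from -0.083 to 0.025, Psmb1 from -0.035 to 0.033, Psmb6 from -0.039 to 0.059, Psmc1 from -0.053 to 0.113, Psmc4 from -0.032 to 0.047, Psmd2 from -0.044 to 0.062 and Psmd9 from -0.014 to 0.08. Log2 ratio levels in wild type by raw counts were 1.08 for Psmb8 to Psmb5, 0.49 for Psmb9 to Psmb6 and -0.55 for Psmb10 to Psmb7, against -0.83, -0.48 and 0.45 by FPKM. Per principal transcript they were 0.23, -0.27 and -0.73. With the replicate number as a block, 8 members and 1904 genes were higher and 1594 lower. The labels do not state that replicate numbers mark pairs, so the numbers are not taken as pairs. The difference between libraries 1 and 2 correlated between genotypes at r = -0.029 across 14180 genes, which are not independent. With 2 libraries a genotype that value cannot exclude pairs. With 2 libraries a genotype, SEs near 0.06 limit which differences of constitutive members can be resolved.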
